A study of Mus musculus with 4 samples.

Results

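The binding sites described here are the FLAG-MIXL1 peaks of mouse chromosome 12 that lie outside the variable (V) segments of the immunoglobulin heavy-chain locus. A peak was taken when its centre lay on chromosome 12 but not between positions 113572929 and 116009954 of mm10. This gave 1306 of the 9598 peaks in the list, while 235 peaks of the same chromosome lay inside the V segments and 7791 lay on the other 18 autosomes. The members were chosen by position, so their number and density are given as a description, without a test. The peaks came from chromatin of mouse epiblast stem cells carrying an inducible FLAG-Mixl1 gene. Per the labels' protocols, irradiated fibroblasts fed the cells, in medium with bFGF (10 ng/mL) and activin A (20 ng/mL). Embryoid bodies then formed in serum for 2 days, and doxycycline (1 µg/mL) was given for 24 h. There were 2 precipitations with the M2 antibody against FLAG and 2 input libraries, and all 4 were made from induced cells. The deposited file is 1 list of positions for the series, with no score, so no peak has a value per library, the depth is unknown, and the intervals below cover the counting of peaks only.

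MIXL1 belongs to the paired-type homeodomain proteins and is made in the primitive streak, the structure through which epiblast cells leave to form mesoderm and endoderm. Proteins of its class recognise the core TAAT and can bind as dimers to palindromes of this core, while the related factor encoded by Gsc prefers TAATCC. Chromosome 12 carries Gsc itself, further developmental regulators such as Osr1, Id2, Esrrb, Foxa1 and Pax9, the imprinted domain from Dlk1 to Dio3 and a cluster of serpin genes.

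Promoter sequences show part of what lay under some of these peaks. Promoter windows from RefSeq (build GRCm38.p6), each reaching from 250 bases before to 50 bases after an annotated transcription start, were compared with the peaks. On chromosome 12 outside the V segments, 28 peaks overlapped 35 windows of 31 genes, of which 17 were protein-coding. These were 35 of 1270 windows there (2.76%), against 445 of 31360 (1.42%) on all autosomes with such windows, chromosome 12 included. Per Mb, peaks of any place were 3.34 times as dense there as on the other autosomes. The 4 motifs searched on both strands were the palindromes TAAT and ATTA with 3 or with 2 free bases between them, the short form TAATTA, and the site preferred by the Gsc product, TAATCC. The short form can lie within either palindrome. The palindrome with 3 free bases stood in 3 of the 35 windows (8.57%), against 0.501% of all 31360 promoter windows on the autosomes of that table. These 3 windows hold 2 sites, because 2 start sites of Rad51b share 1 of them. TAATTA stood in 7 windows (20.0%, against 5.27% of all) and TAATCC in 3 (8.57%, against 7.06% of all), while the palindrome with 2 free bases stood in none (against 0.399% of all). In peak-overlapped windows of the other autosomes of the table, the palindrome with 3 free bases stood in 6 of 410 (1.46%) and that with 2 in 3 (0.732%). TAATTA stood in 46 of these (11.2%) and TAATCC in 33 (8.05%). A match is a description of the letters and was not tested as a binding site.

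The following windows are among those that carry such letters inside a peak. They are not all of them, since further windows with TAATCC inside a peak are not shown. Bases are in lower case, 5′ to 3′ on the strand of the gene, and capitals mark the motif.
Rad51b (a gene of DNA repair by homologous recombination), chr12:79297032-79297331, plus strand: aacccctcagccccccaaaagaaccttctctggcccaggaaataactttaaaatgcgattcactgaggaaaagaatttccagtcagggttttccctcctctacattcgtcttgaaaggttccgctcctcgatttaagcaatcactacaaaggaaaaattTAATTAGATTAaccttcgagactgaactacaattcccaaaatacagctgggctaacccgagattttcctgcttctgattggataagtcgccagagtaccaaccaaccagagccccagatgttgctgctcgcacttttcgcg
Zfyve26 (a zinc-finger protein of lysosome biology), chr12:79296233-79296532, minus strand: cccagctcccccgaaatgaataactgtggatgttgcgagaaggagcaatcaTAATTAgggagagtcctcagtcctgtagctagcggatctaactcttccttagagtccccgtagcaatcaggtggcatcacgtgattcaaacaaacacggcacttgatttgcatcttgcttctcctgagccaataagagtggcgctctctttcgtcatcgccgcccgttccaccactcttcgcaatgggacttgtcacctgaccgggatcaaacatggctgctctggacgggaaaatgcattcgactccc
Rdh11 (a retinol dehydrogenase), chr12:79190912-79191211, minus strand: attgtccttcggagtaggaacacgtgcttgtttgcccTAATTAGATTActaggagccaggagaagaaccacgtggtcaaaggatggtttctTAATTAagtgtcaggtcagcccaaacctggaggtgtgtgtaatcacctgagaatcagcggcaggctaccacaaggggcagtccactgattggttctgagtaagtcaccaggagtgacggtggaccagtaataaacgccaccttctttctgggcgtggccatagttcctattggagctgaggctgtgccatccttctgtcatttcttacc
Myt1l (a neuronal zinc-finger transcription factor), chr12:29534972-29535271, plus strand: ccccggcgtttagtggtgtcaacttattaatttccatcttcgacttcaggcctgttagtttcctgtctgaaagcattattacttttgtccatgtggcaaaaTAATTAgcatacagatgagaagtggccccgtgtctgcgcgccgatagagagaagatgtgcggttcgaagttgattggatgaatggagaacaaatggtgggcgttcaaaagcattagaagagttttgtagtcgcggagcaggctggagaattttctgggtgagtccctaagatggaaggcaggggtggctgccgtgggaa
Nemf (a factor of ribosome quality control), chr12:69357127-69357426, minus strand: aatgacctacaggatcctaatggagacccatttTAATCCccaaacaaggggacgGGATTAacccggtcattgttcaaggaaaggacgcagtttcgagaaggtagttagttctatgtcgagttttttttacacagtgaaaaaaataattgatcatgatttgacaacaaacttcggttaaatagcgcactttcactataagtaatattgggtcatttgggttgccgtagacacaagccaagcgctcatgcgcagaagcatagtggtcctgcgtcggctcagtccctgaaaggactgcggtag
1700022H16Rik (a long noncoding RNA next to Osr1), chr12:9570536-9570835, minus strand: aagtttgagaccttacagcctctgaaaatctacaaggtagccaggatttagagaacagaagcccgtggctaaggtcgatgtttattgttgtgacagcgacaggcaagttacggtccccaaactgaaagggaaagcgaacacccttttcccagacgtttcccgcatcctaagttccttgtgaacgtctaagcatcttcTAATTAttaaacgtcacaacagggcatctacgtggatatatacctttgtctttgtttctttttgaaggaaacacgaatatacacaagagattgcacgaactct

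Rad51b and Zfyve26 are divergent neighbours, and 1 peak of 1573 bp (chr12:79295993-79297565) spanned both starts. Rad51b had the letters TAATTAGATTA 91 bases before this start site. The Rdh11 window held the same 11 letters 213 bases before its own start, under a peak of 1916 bp (chr12:79190379-79192294). That Rdh11 start is at 79190961. The same peak also overlapped the window of another Rdh11 start, at 79191855, the outer end of the gene. The letters therefore lie inside the Rdh11 span. The site in Rad51b lay 417 bp from the centre of its peak and that in Rdh11 lay 167 bp from the centre of its peak. Myt1l had TAATTA 6 bp from the centre of a peak of 886 bp, the closest of the matches to a centre. Nemf held TAATCC at 217 bases before the start and its reverse complement at 196, at 21 and 42 bp from the centre of a peak of 408 bp. The TAATTA of Mnat1, which encodes an assembly factor of a cyclin-dependent kinase complex, was the exception that lay outside its peak. Windows of Rps7 (a ribosomal protein), Etv1 (an ETS factor), Vrtn and Coq6 (coenzyme Q synthesis) were overlapped by a peak and held none of the 4 motifs. In that order, 199, 137, 121 and 31 bases of the window lay under the peak. Peak sequence outside the windows was not searched.

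Along the chromosome the peaks alternated between crowded and nearly empty stretches. Over the 115 Mb searched, from 3 Mb to the last annotated gene and without the V segments, there were 11.4 peaks per Mb (95% Poisson interval 10.8 to 12), against 3.41 on the other autosomes together and 2.44 to 7.09 on each of them. In the 113 complete windows of 1 Mb that did not touch the V segments, counts ran from 0 to 49. Windows with 20 or more peaks made up 16.8% of them (19 windows), against 0.922% of windows on the other autosomes, and held 528 peaks (41.0%). Windows with 0 to 2 peaks made up 25.7% (29 windows), against 52% on the other autosomes, and 9 of them had no peak.

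**Figure D1:**
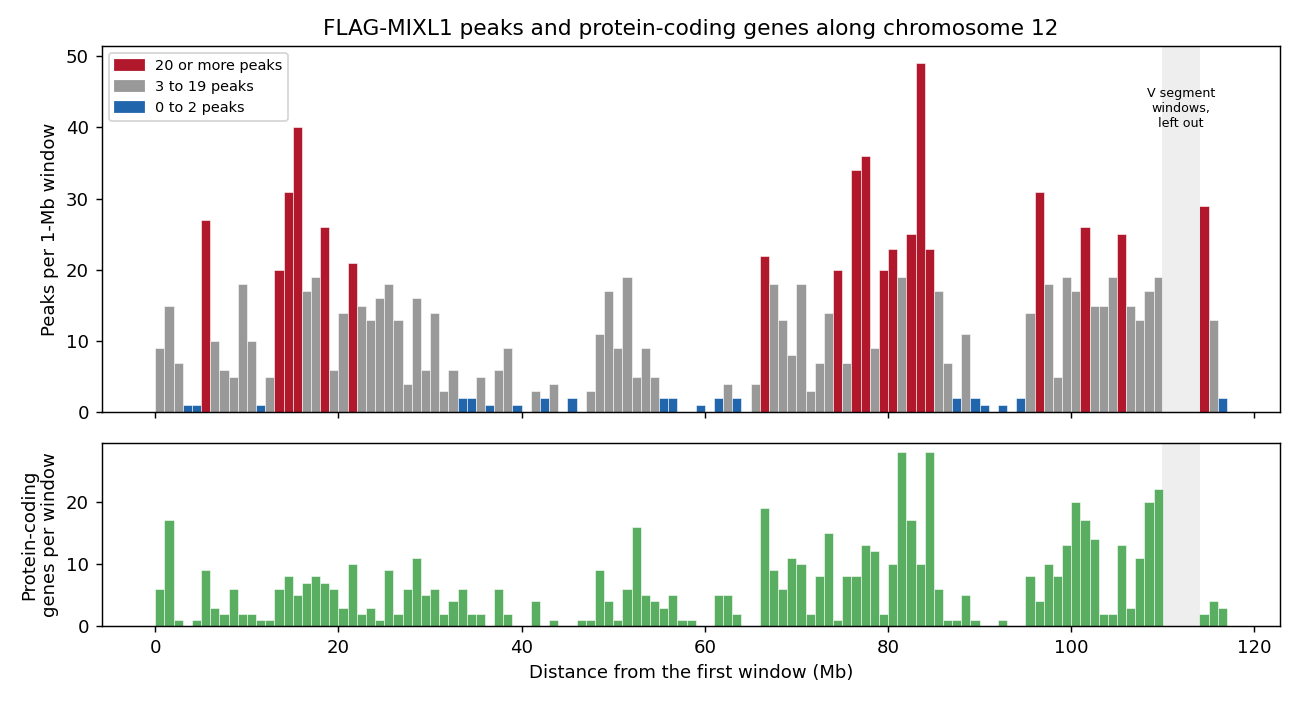
Number of FLAG-MIXL1 peaks (top) and of protein-coding genes (bottom) in 1-Mb windows along chromosome 12, by distance from the first window in Mb, with the windows that touch the V segments left out. Of the windows, 19 have 20 or more peaks (red) and 29 have 0 to 2 (blue); the longest blue runs have few protein-coding genes.

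The 19 crowded windows formed 13 stretches, of which 4 were longer than 1 window. The longest ran from 16000001 to 19000000 with 91 peaks and from 85000001 to 88000000 with 97 peaks. The second of these held 55 protein-coding genes, and Esrrb, the orphan nuclear receptor of naive pluripotency, had the most peaks inside its span there (12). The first held 19 protein-coding genes, with 8 peaks each inside Hpcal1, a neuronal calcium sensor, and the predicted gene Gm40847. The stretch from 79000001 to 81000000 had 70 peaks over 21 protein-coding genes and included Rad51b with 21. That from 82000001 to 84000000 had 43 peaks and included Dpf3 (8), a subunit of the BAF chromatin remodelling complex, and Rgs6 and Sipa1l1 (7 each), regulators of G protein and Rap signalling.

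Single crowded windows differed in how much of their peaks lay inside genes. The window that starts at 108000001 had 25 peaks, 88.0% of them inside protein-coding genes away from the gene ends, led by Eml1 (11), a microtubule-associated protein. The window that starts at 99000001 had 31 peaks, 16 of them in Foxn3, which encodes a forkhead repressor. At the other end, the window that starts at 77000001 had 20 peaks and 1 protein-coding gene, Fut8, a fucosyltransferase, which held 1 of them. The window with Gsc, from 104000001, had 26 peaks and 17 protein-coding genes, with 19.2% of the peaks inside such genes.

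Peaks of crowded windows lay inside protein-coding genes away from the ends in 43.9% of cases and outside all genes in 40.7%. In windows of 3 to 19 peaks the shares were 35.3% and 45.7%, and in those of 0 to 2 peaks 15.6% and 71.9%, the last from 32 peaks. Of these 32 peaks 10 were at least 1 kb wide. The windows also differ in composition. In the median crowded window 49.0% of the bases lay inside protein-coding spans, ends included. This was 40.9% in windows of 3 to 19 peaks and 0.444% in those of 0 to 2. Whether the shares of peaks depart from the shares of bases was not tested.

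Of the 29 windows with 0 to 2 peaks, which held 32 peaks, 16 formed 3 runs of at least 3 windows, with 15 peaks and 18 protein-coding genes in all. These runs had 1.13 protein-coding genes per Mb, against 9.95 in the crowded stretches. The run from 58000001 to 65000000 had 7 peaks over 15 protein-coding genes. It contained the longest interval without any peak, 59083686 to 62849992, in which Lrfn5, a synaptic adhesion gene, Mia2, Fbxo33 and Gm32936 are annotated. The run from 92000001 to 98000000 had 6 peaks and 2 protein-coding genes, one of them Flrt2, an adhesion gene of axon guidance. Flrt2 lay in an interval of 2414 kb between neighbouring peak centres, with its nearest peak 217 kb away. Mdga2, which encodes a neuronal membrane protein, was the single protein-coding gene in an interval of 2140 kb. Of the 10 longest intervals 3 contained no complete protein-coding gene and touched none. Among these were the intervals before Flrt2 and between Lratd1 and Trib2.

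Between neighbouring peaks the median distance was 31.2 kb on chromosome 12 (quartiles 8.86 and 85.1 kb) and 101 kb on the other autosomes (quartiles 24.1 and 303 kb). Intervals of 1000 kb or more numbered 12 and took up 19.5% of the distance on chromosome 12, against 487 intervals and 44.6% on the other autosomes. Over the 113 windows, the number of peaks and of protein-coding genes had a Spearman correlation of 0.69 (Pearson 0.51). Windows of the same chromosome are neighbours and share the libraries, so this is a description. The same coefficient ran from 0.17 to 0.62 on the other autosomes, with a median of 0.48. More of their windows hold only 0 to 2 peaks (52%, against 25.7% on chromosome 12), so the coefficients are not directly comparable. The part of this difference was not tested.

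Of the peaks of chromosome 12, a smaller share lay at gene ends and a larger share was wide than on the other autosomes. The first is a share of peaks and not of gene ends. Promoter windows were overlapped by a peak more often on chromosome 12 (2.76%, against 1.42% over all autosomes with such windows). Peaks of any place were also 3.34 times as dense there as on the other autosomes, and the part of density was not tested. At gene ends, meaning at most 1 kb from either end of a protein-coding span, lay 50 of 1306 peaks (3.83%, 95% Wilson interval 2.92 to 5.01), against 568 of 7791 on the other autosomes (7.29%, interval 6.73 to 7.89). The odds ratio was 0.506 (interval 0.369 to 0.681, adjusted p = 3.25e-06, two-sided Fisher's exact test with Benjamini-Hochberg adjustment over 5 shares). Chromosome 12 was below each of the 18 other autosomes, which ran from 4.64 to 10.8%. Gene ends are also rarer there, since 2.18% of the searched bases lay within 1 kb of one, against 3.15% on the other autosomes. The share of peaks over the share of bases was 1.76 on chromosome 12 and 2.32 on the other autosomes together, and 15 of the 18 single autosomes were above chromosome 12 by this ratio.

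The other classes shifted in the same comparison. Inside protein-coding genes, beyond 1 kb of an end, lay 500 peaks (38.3%), against 44.1% on the other autosomes (odds ratio 0.785, adjusted exact p = 9.58e-05). Inside genes of other types only lay 181 peaks (13.9%), against 10.6% (odds ratio 1.35, adjusted exact p = 0.000715). Outside all annotated genes lay 575 peaks (44.0%), against 38.0% (odds ratio 1.29, adjusted exact p = 5.71e-05). These shares stayed within the range of single autosomes, where 2 were lower for the inside share, 2 were higher for other genes and 3 were higher for the outside share. Chromosome 12 has 5.92 protein-coding genes per Mb, fewer than 17 of the 18 other autosomes, and its searched bases are divided differently. Bases inside protein-coding genes made up 35.1%, against 39.4% on the other autosomes, those inside other genes only 9.58%, against 8.19%, and those outside genes 53.1%, against 49.2%. The share of peaks over the share of bases was 1.09 inside protein-coding genes, against 1.12, 1.45 inside other genes, against 1.30, and 0.829 outside genes, against 0.771. These ratios were not tested. Neighbouring peaks are not independent of each other, which makes all p-values of this comparison too small.

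Peaks of 1 kb or more numbered 233 (17.8%, interval 15.9 to 20.0), against 11.3% on the other autosomes (odds ratio 1.71, interval 1.45 to 2.00, adjusted exact p = 8.92e-10). Each of the 18 other autosomes was lower, from 7.69 to 15.6%. Median widths were 555 bp on chromosome 12 and 475 bp on the other autosomes, and the V segment peaks had 596 bp. In every class the chromosome 12 share of wide peaks was higher, at 12% against 5.28% at gene ends, 17.8% against 10.8% inside protein-coding genes, 17.7% against 11.9% inside other genes and 18.4% against 12.8% outside genes. The classes were not tested one by one.

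**Figure D2:**
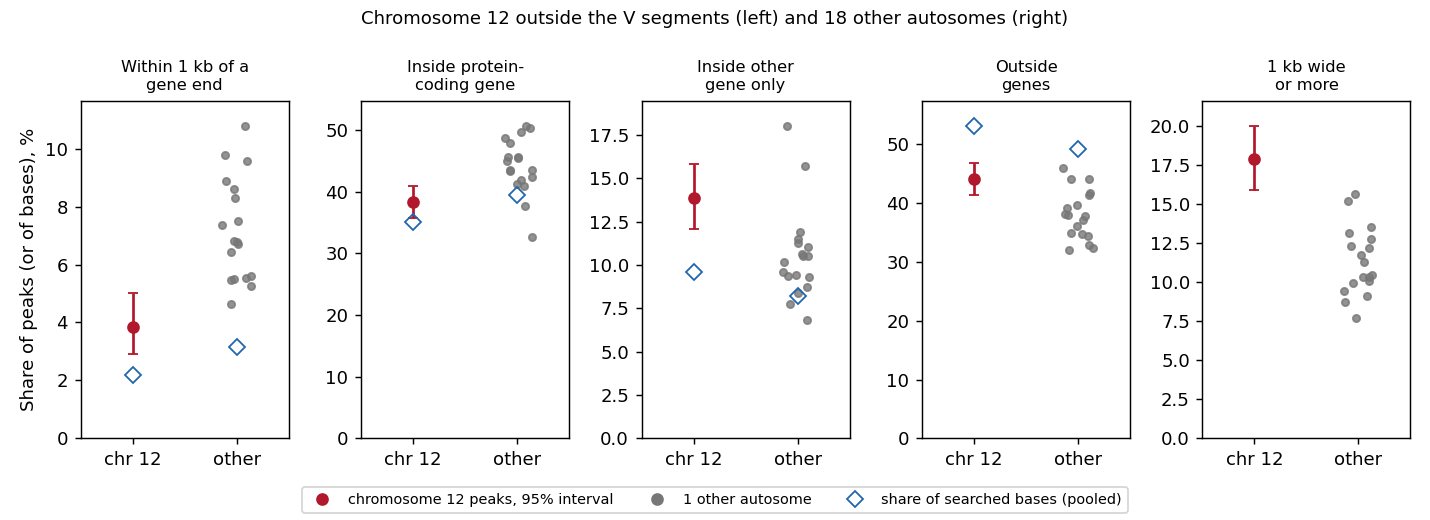
Share of peaks in % for 5 features, for chromosome 12 outside the V segments (red, with 95% Wilson interval) and for each of the 18 other autosomes (grey); open diamonds give the share of searched bases in the class. Chromosome 12 lies below all 18 autosomes for gene ends (3.83%) and above all 18 for peaks of 1 kb or more (17.8%).

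The widest chromosome 12 peak, of 4859 bp, lay inside Foxn3 (chr12:99504692-99509550) and the next, of 3668 bp, inside Dpf3 (chr12:83287980-83291647). Others among the 8 widest were far from protein-coding genes. A peak of 3288 bp lay 224 kb from Dact1, which encodes an antagonist of Wnt signalling, inside a gene of another type, and one of 3003 bp lay 197 kb from Cyria, outside genes. The remaining members of this group had 3524 bp, 27.4 kb from Ttc8, 2871 bp, 77.0 kb from Ppp2r5c, 2800 bp inside Acyp1, and 2733 bp, 297 kb from the predicted gene Gm40862.

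Among the genes with most peaks inside their spans, long genes led. Rad51b (551 kb) had 21 peaks inside, Foxn3 (374 kb) 16, Esrrb (161 kb) 12, and Eml1 (169 kb) and Ptprn2 (792 kb), a phosphatase-like protein of secretory granules, 11 each. Nrxn3 (1612 kb), a presynaptic neurexin, had 10. With 8 each followed Hpcal1, Mboat2, a phospholipid acyltransferase, Gm40847, Rapgef5, a Rap exchange factor, Dpf3 and Akap6, an anchor of protein kinase A, and also Immp2l, a mitochondrial peptidase tied with them. Per 100 kb of span the order was different, with 7.91 in Hpcal1, 7.48 in Esrrb, 6.53 in Eml1, 3.81 in Rad51b and 0.620 in Nrxn3. Over all 678 protein-coding genes of chromosome 12 outside the V segments, 219 (32.3%) had a peak inside, against 12% on the other autosomes. The 459 without one had a median length of 15.9 kb, the 189 with 1 to 4 peaks 60.9 kb and the 30 with 5 or more 236 kb.

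**Figure D3:**
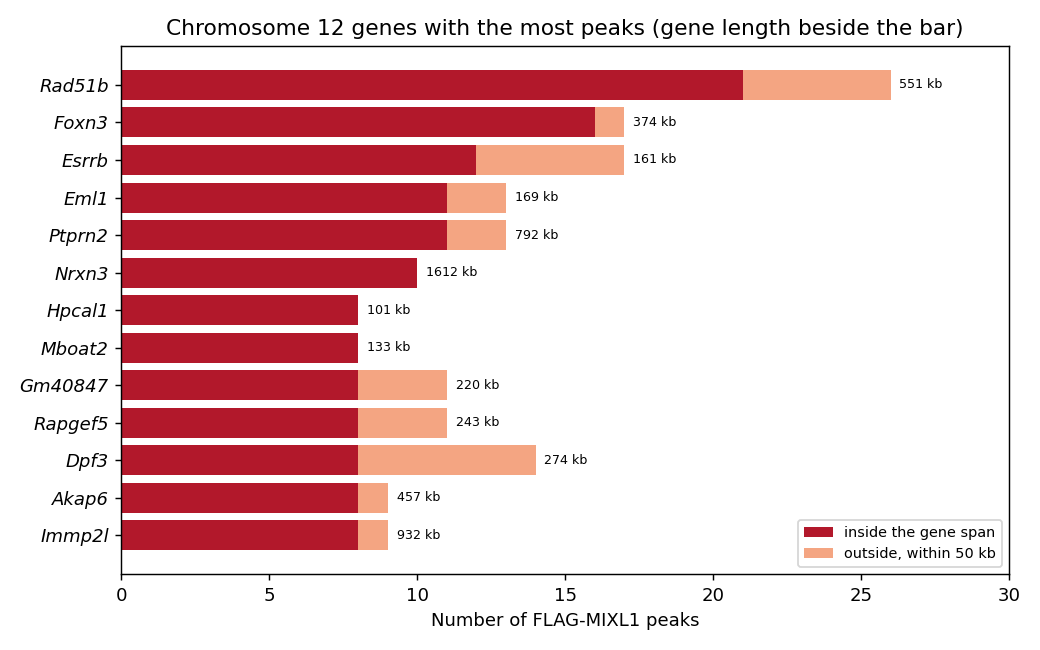
Number of FLAG-MIXL1 peaks inside the gene span (dark) and outside it within 50 kb (light) for the chromosome 12 protein-coding genes with 8 or more peaks inside, with the gene length in kb. Rad51b leads with 21 peaks inside, while Esrrb holds 12 in a span of 161 kb.

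Within Esrrb the peaks were uneven. The first 8 of the 12 lay between 86363989 and 86411289 and the other 4 between 86456006 and 86493613. Rad51b had peaks from 79351654 to 79848166, and those at 79353236 and 79846172 belong to peaks of 1583 and 1995 bp. Matn3, a cartilage matrix gene of 24.1 kb, held 5 peaks, the widest of 2071 bp (chr12:8963928-8965998).

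Other genes had most of their peaks around them. Within 50 kb, 517 genes had a peak (76.3%), against 37.6% on the other autosomes. Laptm4a, a lysosomal membrane gene, had 11 peaks within 50 kb and none inside. Cipc, a repressor of the circadian clock, had 4 inside and 9 around it, and lay in the longest chain of peaks less than 10 kb apart, 9 peaks from 86911378 to 86964944. Wdr35, a gene of ciliary transport, and Pramel51 had 9 around them each, Zdhhc22, Gm8300 and Gm52006 had 8, and Fos, the AP-1 gene, had 7. Neighbouring genes share peaks in these counts. The 8 around Zdhhc22 are all among those inside or around Cipc, and the 5 inside Matn3 count again around Laptm4a and Wdr35. Chains of 6 or 7 peaks lay beside Pramel51 (chr12:88211501-88225916), across Gm8300 (chr12:87510644-87527170) and at 2 places where only predicted genes are annotated nearby (chr12:20206052-20224131 and chr12:21583377-21603230). Predicted and family genes of these stretches can have near-identical copies, and how reads that match several places were treated is not given in the sources used here, so their counts are uncertain. Among genes of other types, the RNA gene Gm4983 had 6 peaks inside, and the long noncoding RNA genes Gm33483, Gm40554 and Gm30515 and the pseudogene Gm9282 had 5 each. Of 953 groups of peaks at most 10 kb apart, 721 were single peaks.

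The 50 peaks at gene ends lay near 56 genes, and 8 of them were near the ends of more than 1 gene. Where the promoter table gives the strand, 32 lay at a start side and 12 at an end side only, and 6 were at genes of unknown strand. The nearest to an end were at Wdcp (15 bp), Cbll1 (26 bp), which encodes a ubiquitin ligase, Ppp2r3c (42 bp), a phosphatase subunit, and Vrtn (51 bp). Lrrn3 (94 bp), the splicing factor gene Rbm25 (158 bp), 2700049A03Rik (167 bp), Ccdc85c (191 bp), Nemf (210 bp) and Coq6 (211 bp) came next. The peaks at Cbll1, Ppp2r3c, Vrtn, Rbm25, 2700049A03Rik, Ccdc85c, Nemf and Coq6 were at the start side. By annotated starts, 2.45% of chromosome 12 peaks lay within 1 kb of a protein-coding start, against 5.41% on the 17 other autosomes with start sites in the table. The median distance to a start was 57.7 kb on chromosome 12, against 47.1 kb. Start sites were matched for 588 of the 678 genes.

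A peak centre within 10 kb was found for 320 of the 678 protein-coding genes of chromosome 12 outside the V segments (47.2%), against 18.7% on the other autosomes, and the median gene was 12.2 kb from its nearest peak. Transcription factor and chromatin genes gave 20 of 40 (50%, median 10.9 kb), a share near that background. Signalling, adhesion and membrane traffic genes gave 19 of 27 (70.4%, median 0 kb, that is, inside the gene). These are longer, with a median of 46.9 kb against 25.1 kb for all 678, and the part of length was not tested. The lists were chosen with earlier results of these data known, so the shares carry no test.

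Among the transcription factors, peak positions ranged from the gene itself to far away. Osr1, a zinc-finger regulator of intermediate mesoderm, had 3 peaks within 10 kb, 1 of them inside (chr12:9575755-9576420), 1 at 0.647 kb and 1 over the start of the neighbouring noncoding RNA printed above. Id2, an inhibitor of basic helix-loop-helix factors, had 1 at 0.705 kb (chr12:25096618-25096976) and Gsc had 1 at 0.463 kb (chr12:104473531-104473867). Etv1 had 2 peaks inside, of which 1 lay on its start (chr12:38779995-38781250). Sp8 had 2 peaks within 10 kb, the nearest at 2.08 kb, and Pax9, a gene of pharyngeal pouches and teeth, had 1 at 3.18 kb. Of the sine oculis homeobox genes, Six4 had 2 within 10 kb with the nearest at 0.946 kb, and Six6 had its nearest at 80.9 kb. Foxa1, a pioneer factor of endoderm, had its nearest peak at 31.5 kb, Twist1 at 19.6 kb, Sox11 at 13.0 kb, Mycn at 52.5 kb and the lung and thyroid regulator Nkx2-1 at 72.6 kb. Meox2, a homeobox gene of somites, was 156 kb from a peak.

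Among signalling genes, Rapgef5 had 8 peaks inside, Ppp2r5c, a phosphatase subunit, 5, and Map4k5 and Prkch, both kinases, 4 each. Tgfb3, a TGF-beta ligand gene, had 1 inside of 1207 bp (chr12:86070800-86072006) and 4 more within 50 kb. Numb, an antagonist of Notch, had 1 inside, and the Notch ligand gene Jag2 had 1 at 9.67 kb. Dact1 had its nearest at 12.9 kb. Sostdc1, an antagonist of BMP and Wnt, had its nearest at 241 kb.

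In the imprinted domain, 16 peaks lay between Dlk1 and Dio3 (chr12:109452485-110281097), or 19.3 per Mb. They were denser up to the end of Rian (7 peaks in 209 kb) than beyond it (9 in 619 kb). Of the maternally expressed noncoding genes, Meg3 had 2 peaks inside and Rian 4, and Mirg had its nearest at 39.7 kb. Of the paternally expressed genes, Rtl1 had its nearest peak at 3.10 kb with 6 within 50 kb, Dlk1 had 1 at 6.42 kb, and Dio3 had none within 50 kb. Of 61 microRNA genes annotated between Meg3 and Dio3, 5 had a peak within 10 kb (8.20%), against 29.4% of all noncoding and other genes of the chromosome. The microRNA genes have a median length of 0.08 kb and most lie close together, so neighbours share their nearest peak. They are not separate observations, and the part of length was not tested. Of the 8 genes listed for the domain and its edge, 5 had a peak within 10 kb (62.5%), the noncoding Meg3 and Rian among them. The list mixes protein-coding and noncoding genes, for which the chromosome's shares were 47.2% and 29.4%. With 8 genes, the numbers are too few to read this as a difference. The list as written also held Ppp2r3c, which lies elsewhere, at 55280809 to 55303239. The 28 serpin A genes, a family of secreted protease inhibitors, include pseudogenes here, such as Serpina3h and Serpina3d-ps. Their median length was 8.50 kb, against 25.1 kb for all protein-coding genes. A peak within 10 kb was found for 7 of the 28 (25%), all 7 of them protein-coding. The 47.2% covers protein-coding genes only, so it is not a like background for the 28. Among these 7, Serpina1a, Serpina1b and Serpina1c had 1 inside each. These copies are near-identical, so their reads may not be told apart.

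At the edges of the V segments, the 3 nearest peaks before them had widths of 420, 375 and 510 bp and lay 97.1 to 100 kb from the first position, with Adam6b as the nearest protein-coding gene. The first peak inside was 24.7 kb within. After the V segments, the first peak, of 532 bp, lay 1.56 kb beyond the last position and 36.2 kb from Zfp386, the second, of 426 bp, lay inside Zfp386, and the third, of 2402 bp, inside Wdr60. The last peak inside lay 148 kb before that edge. Windows that touch the V segments were left out of the stretches above.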

How the data were processed

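Peak positions were analysed from 2 FLAG precipitation and 2 input libraries, which enter as 1 list. The deposited file gives other values than counts, namely a chromosome, a start and an end per peak, per the file's columns. CASAVA 1.8.2, Bowtie2, SAMtools and MACS2 are named in the submitters' processing notes with mm10. The name of the deposited list carries abbreviations, among them bl and uniq, that the sources used here do not explain. No threshold, filter, use of input or pooling is stated in words. Depth per library is unknown, so precision rests on the number of peaks. Positions are printed 1-based.

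Genes came from RefSeq GRCm38.p6. As the gene table has no strand, either end of a span served as gene end. Searched length ran from 3 Mb to the last gene, and 340 genes listed in the first 3 Mb were left out. Each peak got 1 class by its centre, taken in the order gene end (1 kb, protein-coding), protein-coding span, span of any other gene, outside. For the 5 shares, Fisher's exact test (two-sided) was run and adjusted by Benjamini-Hochberg, with a threshold of 0.05; the code was tested on simulated data. Members, lists and tests were chosen with earlier results of these data known. Named genes were the 12 with most peaks inside (with a tie) and the 8 with most outside the span but within 50 kb (with a tie). Also named were the 10 nearest gene ends, genes by the 8 widest peaks, at the V edges and in crowded or empty stretches, and list members. Genes beside printed promoter windows and Matn3 were named after their values were seen. Some genes that this rule names are not reported here. Spred3 and Dusp26 were listed but are not annotated on chromosome 12. Tests used scipy 1.17.1 and statsmodels 0.14.6 under Python 3.11.15; tables used pandas 2.3.3 with numpy 2.4.6 and figures matplotlib 3.10.9.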

Additional observations from a re-analysis of the deposited data

How the results depend on the processing

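All 5 shares kept their direction and their side of the threshold under every alternative run (6 to 10 each). The odds ratio ran from 0.371 to 0.609 for gene ends, 0.669 to 0.804 inside protein-coding genes, 1.26 to 1.5 inside other genes, 1.26 to 1.39 outside genes and 1.62 to 2.13 for wide peaks, with adjusted exact p of at most 0.0283. The density of 11.4 peaks per Mb was 8.07 without 1-Mb windows of 20 or more peaks (2.59 times the other autosomes), 8.32 with peaks merged within 10 kb (2.91 times) and 6.57 with the wider 50% of the peaks (4.01 times), against 3.34 times in the main count. Merging within 10 kb gave 7 crowded windows in place of 19, the wider 50% of the peaks gave 19 intervals of 1000 kb or more in place of 12, and a limit of 50 kb in place of 10 kb gave 517 protein-coding genes with a peak in place of 320. No paired analysis was possible because the replicates enter as 1 list, and no replicate could be left out for the same reason. A list without scores shows neither peak height nor agreement between libraries.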
